A study of Homo sapiens with 4 samples.

Results

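The genes described here are the STEAP metalloreductases and the enzymes that make and break down polyamines. They are 10 of the 19583 genes that the arrays measured, and were taken by symbol: STEAP1, STEAP2, STEAP3, STEAP4, ODC1, AMD1, SRM, SMS, SAT1 and SMOX. Every probe set that the platform annotation gives to one of them alone was used, which made 17 probe sets of the 39464 tested. To see what the transcription factor ERG changes in prostate cancer cells, LNCap cells carrying the ERG lentivirus (LNCap ERG, 2 arrays) were set against LNCap cells carrying the control lentivirus (LNCap Vector, 2 arrays). LNCap, usually written LNCaP, is an androgen-responsive prostate tumor cell line, and both groups are this one line, carry a red fluorescent protein from the virus and were grown overnight in regular medium before RNA was taken. Whether arrays of a group stem from separate cultures or transductions is not stated, nor is the promoter that drives ERG, so the p-values cover only how much these arrays vary, possibly for technical reasons.

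STEAP proteins are multi-pass membrane proteins named for their abundance in prostate epithelium. STEAP2, STEAP3 and STEAP4 pass electrons from NADPH through flavin and heme to ferric iron and cupric copper, which lets the reduced metals enter the cell; STEAP1 carries the heme but lacks the domain that takes electrons from NADPH. Polyamines are small cationic molecules, and the prostate is known for making and secreting large amounts of spermine. ODC1 turns ornithine into putrescine, AMD1 makes the decarboxylated S-adenosylmethionine that donates aminopropyl groups, SRM adds one such group to give spermidine, and SMS adds another to give spermine. SAT1 acetylates spermidine and spermine for export or breakdown, and SMOX oxidizes spermine back to spermidine. ODC1 and AMD1 are regulated strongly at the level of protein synthesis and turnover, which RNA arrays do not read.

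No member probe set passed an adjusted p of 0.05 (limma with Benjamini-Hochberg adjustment), and neither did any other of the 39464 probe sets tested, a background of 0%. At an unadjusted p under 0.05, 1 of the 17 was higher in LNCap ERG, against 4.30% of all probe sets, and 1 was lower, against 4.41%. By the methods' t-test at the same unadjusted threshold, 2 were higher, both of SAT1, against 3.65% of all probe sets, and 0 were lower, against 3.69%, so that STEAP4 passed by limma but not by that test. The arrays of the groups did not overlap for 3 member probe sets that were higher in LNCap ERG (background 18.9%) and 3 that were lower (background 20.1%), so the members stood apart about as often as probe sets did in general. Their median log2 fold change was 0.00, as it was over all probe sets. The genes that carried the separated values were SAT1, at all 3 of its probe sets, and STEAP4, AMD1 and SMOX, at 1 probe set each.

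**Figure D1:**
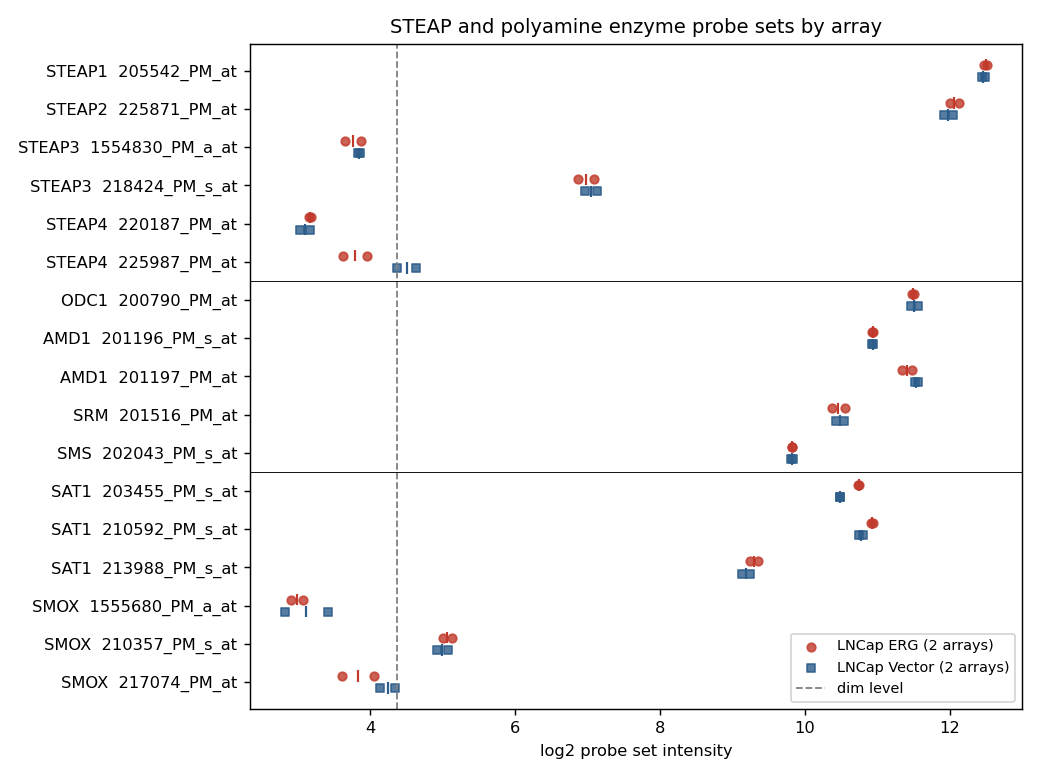
Log2 intensity (x axis) of the 17 probe sets of the 10 genes (y axis, STEAP family above, synthesis enzymes in the middle, catabolic enzymes below). Circles are the 2 LNCap ERG arrays, squares the 2 LNCap Vector arrays, and short lines their means. The dim level, 4.37, is dashed, so that STEAP4 and most of SMOX lie near or left of it while the synthesis enzymes lie at 9.81 to 11.56.

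Probe sets are called dim here where they lie below a log2 intensity of 4.37, the 95th percentile of 57 probe sets of 34 genes that belong to other organs. By this yardstick 12 of the 17 were above the dim level on all 4 arrays, and 50.1% of all probe sets tested lay below it on every array. The 12 brighter member probe sets had log2 fold changes of -0.13 to 0.26 with a median of 0.02. The dim probe sets of STEAP3, STEAP4 and SMOX give no exact size of a change.

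The cells carried the markers of their label. Of the luminal prostate markers, 7 of 7 measured were above the dim level on all arrays, KLK3 and FOLH1 among them, with summed linear intensities of 23556 to 23830 in LNCap ERG and 24622 to 24830 in LNCap Vector, and 0 of 3 basal and 0 of 5 leukocyte markers were. Of 7 fibroblast and smooth muscle markers COL1A1 and ACTA2 were above it, with summed linear intensities over the list of 522 to 571 in LNCap ERG and 435 to 448 in LNCap Vector, and of 3 endothelial markers VWF was, with sums of 87.4 to 94.4 in LNCap ERG and 71.6 to 77.8 in LNCap Vector. Their part in the values below was not tested, and in RNA of whole cultures fewer expressing cells and less RNA per cell cannot be told apart. ERG itself does not check the labels: its 4 probe sets were dim on every array and differed by -0.24 to 0.12 (log2), and whether they read the ERG of the virus is not known here. Over all probe sets the log2 difference between arrays of one group had an SD of 0.20, and that between arrays of different groups one of 0.20 to 0.25.

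STEAP1 and STEAP2, next to each other on chromosome 7 with 0 protein-coding genes between them, both read high and nearly alike in the groups. STEAP1 had log2 intensities of 12.47 and 12.52 in LNCap ERG, against 12.44 and 12.48 in LNCap Vector. The arrays interleaved, and the groups differed by a log2 fold change of 0.03 ± 0.09 (SE, limma, adjusted p = 0.95), with a 95% interval that ran from 0.883-fold to 1.19-fold. STEAP2, a reductase of the Golgi and the plasma membrane, had 12.00 and 12.12 in LNCap ERG, against 11.91 and 12.05 in LNCap Vector. Here too the arrays overlapped, and each group spread about as widely as the groups lay apart: the log2 fold change was 0.08 ± 0.10 (SE, adjusted p = 0.87), with an interval of 0.890-fold to 1.26-fold. These intervals leave room for a small change in either direction, and both lie well within a log2 unit of 0.

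STEAP3, the ferrireductase of the transferrin endosome, was read by 2 probe sets. The brighter had 7.09 and 6.87 in LNCap ERG, against 6.97 and 7.13 in LNCap Vector, a log2 fold change of -0.07 ± 0.12 (SE, limma, adjusted p = 0.91). Its arrays overlapped, and so did those of the dim one, which had a log2 fold change of -0.08 ± 0.11 (SE). Both probe sets of STEAP3 therefore gave a difference smaller than the spread between arrays of LNCap ERG.

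STEAP4, a metalloreductase known for its regulation by androgen and inflammation, had the largest difference among the members, but at intensities close to the dim level. One of its probe sets had log2 intensities of 3.63 and 3.96 in LNCap ERG, against 4.37 and 4.63 in LNCap Vector. Both LNCap ERG arrays lay below both LNCap Vector arrays. They also lay below the dim level, while both LNCap Vector arrays lay above it, one of them only just. The log2 fold change was -0.71 ± 0.15 (SE, limma, adjusted p = 0.46), which is 0.612-fold as measured, with an interval of 0.470-fold to 0.798-fold and an unadjusted p of 0.0044. The other probe set was dim on all arrays, at 3.16 and 3.18 in LNCap ERG and 3.03 and 3.17 in LNCap Vector, and had a log2 fold change of 0.07 ± 0.09 (SE). With an offset of 16 added on the linear scale before the logarithm, the first of these differences was -0.37. The 2 probe sets of STEAP4 thus differed in sign, and their mean had a log2 fold change of -0.32 ± 0.10 (SE, adjusted p = 0.44).

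**Figure D2:**
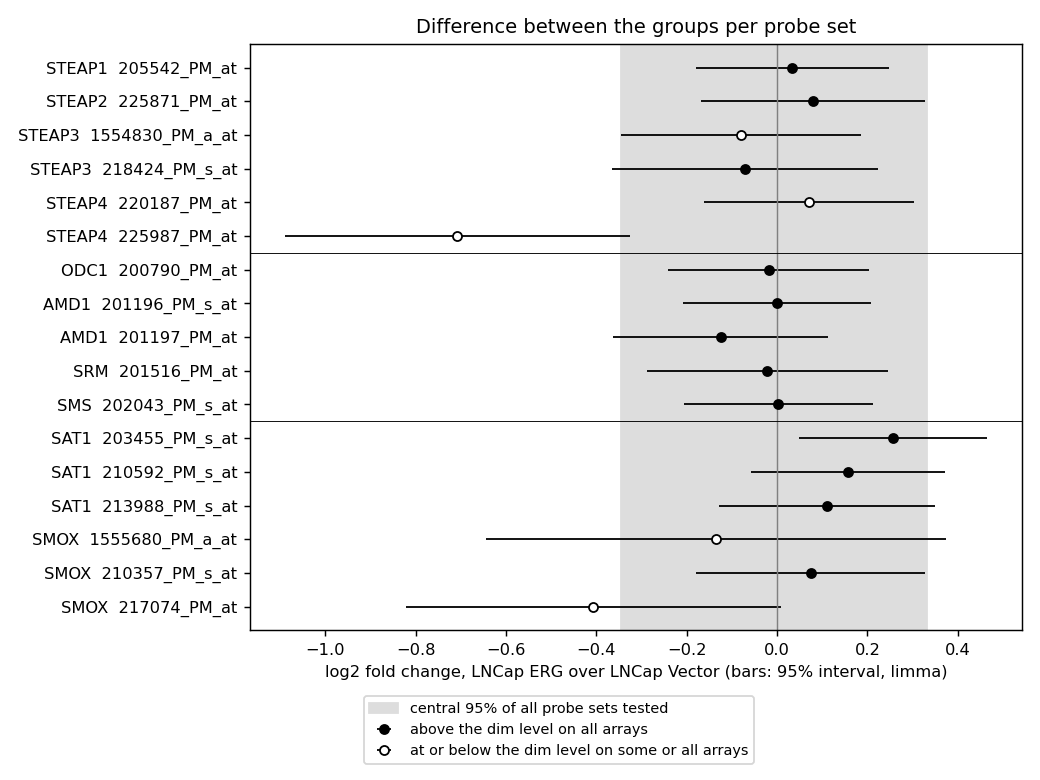
Log2 fold change of LNCap ERG over LNCap Vector (x axis) for the 17 probe sets (y axis), with 95% intervals from limma; open circles are dim on some or all arrays. The grey band is the central 95% of all probe sets tested, -0.34 to 0.33. The points outside it are a probe set of STEAP4, at -0.71 and dim on the LNCap ERG arrays only, and one of SMOX, at -0.41 and dim on all arrays.

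The 4 synthesis enzymes were bright and close to level between the groups. ODC1, the first enzyme of the pathway, had log2 intensities of 11.48 and 11.50 in LNCap ERG, against 11.46 and 11.56 in LNCap Vector. The LNCap Vector arrays enclosed those of LNCap ERG, and the log2 fold change was -0.02 ± 0.09 (SE, limma, adjusted p = 0.98), with an interval of 0.846-fold to 1.15-fold. SRM, spermidine synthase, had 10.56 and 10.37 in LNCap ERG, against 10.54 and 10.43 in LNCap Vector, so the spread within each group exceeded the difference of the means, a log2 fold change of -0.02 ± 0.11 (SE). SMS, spermine synthase, showed the smallest spread over the 4 arrays together with one AMD1 probe set: it read 9.83 and 9.82 in LNCap ERG, against 9.83 and 9.81 in LNCap Vector, a log2 fold change of 0.00 ± 0.08 (SE, interval 0.866-fold to 1.16-fold).

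AMD1, S-adenosylmethionine decarboxylase, had 2 bright probe sets, and the intervals of both included no change. At one the log2 intensities were 11.34 and 11.48 in LNCap ERG, against 11.51 and 11.56 in LNCap Vector. Both LNCap ERG arrays were the lower ones, by a log2 fold change of -0.13 ± 0.10 (SE, limma, adjusted p = 0.76; interval 0.778-fold to 1.08-fold). At the other they were 10.93 and 10.94 in LNCap ERG, against 10.94 and 10.93 in LNCap Vector, with group means that were equal to within 1e-06 on the log2 scale. None of the 5 probe sets of the synthesis enzymes reached an unadjusted p of 0.05 by limma, where 4.30% of all probe sets did so higher and 4.41% lower. Of the 5, 4 overlapped between the groups and 1 did not, against 39.0% without overlap over all probe sets.

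SAT1, the acetyltransferase that starts polyamine breakdown, was the one member whose probe sets all lay on one side, above the LNCap Vector arrays, though none passed the adjusted threshold. At the first probe set the log2 intensities were 10.73 and 10.75 in LNCap ERG, against 10.49 and 10.48 in LNCap Vector. The arrays of each group were within 0.02 of each other while the groups lay 0.26 ± 0.08 apart (SE, limma, adjusted p = 0.53), a fold of 1.19 with an interval of 1.03 to 1.38 and an unadjusted p of 0.024. The second had 10.92 and 10.94 in LNCap ERG, against 10.74 and 10.81 in LNCap Vector, again without overlap, with a log2 fold change of 0.16 ± 0.09 (SE, adjusted p = 0.67). At the third the values were 9.25 and 9.36 in LNCap ERG, against 9.25 and 9.14 in LNCap Vector. There the nearest arrays of the 2 groups were at linear intensities of 607.4 and 607.1, so the separation was far smaller than the spread within either group, and the log2 fold change was 0.11 ± 0.10 (SE, adjusted p = 0.78). These 3 probe sets read one transcript family from the same RNA and are not replicates of each other; their mean had a log2 fold change of 0.17 ± 0.07 (SE, adjusted p = 0.54). One further probe set, annotated to SAT1 and to another gene, was not used.

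SMOX, spermine oxidase, was near the dim level. The one probe set above that level had log2 intensities of 5.01 and 5.13 in LNCap ERG, against 4.92 and 5.07 in LNCap Vector, which overlapped, with a log2 fold change of 0.07 ± 0.10 (SE, limma, adjusted p = 0.88). A dim probe set had 4.05 and 3.62 in LNCap ERG, against 4.34 and 4.14 in LNCap Vector, both lower, with a log2 fold change of -0.41 ± 0.17 (SE, adjusted p = 0.58). That difference was -0.20 with the offset of 16, and it was -0.62 without the first LNCap ERG array and -0.19 without the second. The third, also dim, had values of 2.90 and 3.07 in LNCap ERG and of 3.42 and 2.82 in LNCap Vector, which overlapped. SMOX thus had no common direction over its 3 probe sets.

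**Figure D3:**
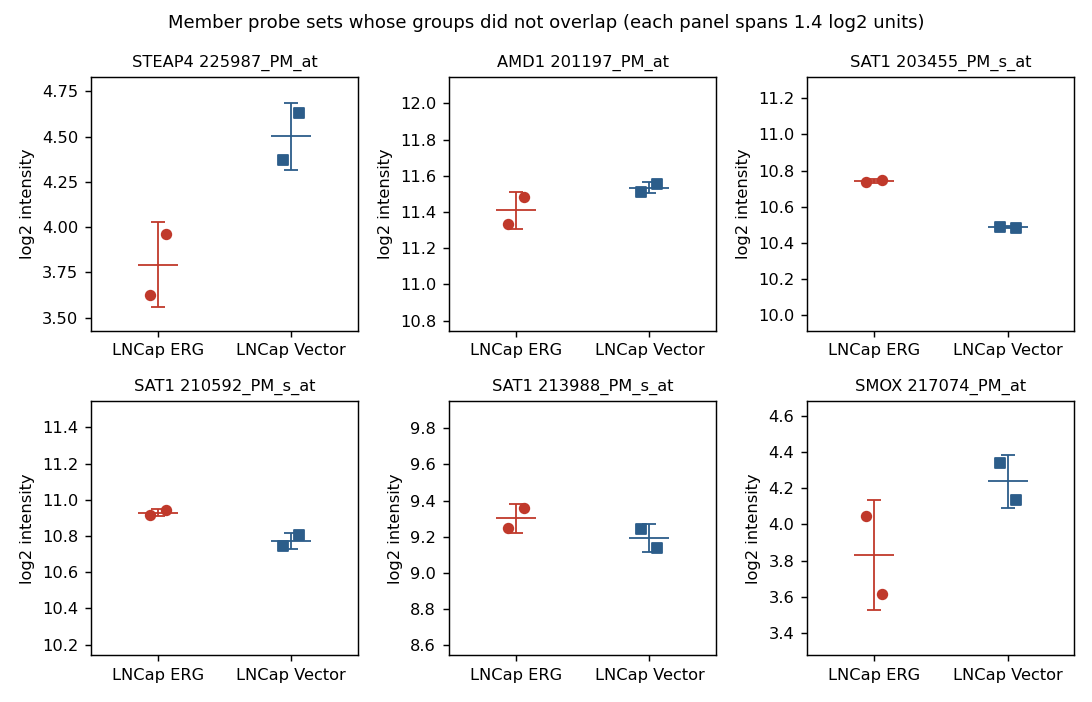
Log2 intensity (y axis) of the 6 member probe sets whose groups did not overlap, LNCap ERG left and LNCap Vector right (x axis). Points are arrays, horizontal lines means and bars the SD over 2 arrays, and every panel spans the same range of log2 intensity; SAT1 was higher in LNCap ERG at all 3 of its probe sets, by 0.11 to 0.26, and STEAP4, AMD1 and SMOX were lower at 1 each.

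The DNA before the start of SAT1 and STEAP4 is printed because these were the members with the smallest unadjusted p in each direction. The sequences are the 250 bases upstream of the RefSeq start, in GRCh38.p14, at chrX:23782923-23783172 on the + strand and at chr7:88306895-88307144 on the - strand. Capitals mark GGAA, or TTCC where it lies on the other strand, the core that ETS factors such as ERG bind.
SAT1: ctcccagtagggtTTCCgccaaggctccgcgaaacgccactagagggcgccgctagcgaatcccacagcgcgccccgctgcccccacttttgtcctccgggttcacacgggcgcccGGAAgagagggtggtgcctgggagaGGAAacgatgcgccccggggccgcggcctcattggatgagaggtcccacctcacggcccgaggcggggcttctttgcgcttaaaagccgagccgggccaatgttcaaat
STEAP4: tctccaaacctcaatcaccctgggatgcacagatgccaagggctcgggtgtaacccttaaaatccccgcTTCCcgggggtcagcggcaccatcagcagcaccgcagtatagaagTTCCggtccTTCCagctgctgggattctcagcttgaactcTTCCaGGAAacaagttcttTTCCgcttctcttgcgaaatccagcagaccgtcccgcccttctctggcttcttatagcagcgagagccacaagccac

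The core stood at 3 places before SAT1 and at 6 before STEAP4. So short a motif is near universal, and 92.7% of all 35116 RefSeq promoter windows of this length held it on one strand or the other. Of the members, all but SMOX, 9 genes, had entries, 13 in all since some genes have several starts, and 12 of the 13 held GGAA, the exception being STEAP3. The longer ETS motif CCGGAAGT, which contains GGAA, was in 0 of the 13 and in 3.42% of all windows. CACGTG, the E-box that MYC binds, was in 2 of the 13, those of SRM and of one ODC1 start, and in 6.34% of all windows. The full palindromic androgen response element, searched with any 3 bases between its arms, was in 0 of the 13 and in 1 window of all. A match describes letters only, and the arrays measured no binding.

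Other genes of the pathways were counted at 1 probe set each, the one with the highest mean. Of 21 genes of polyamine supply, regulation and transport, all measured, none passed. At an unadjusted p under 0.05 by limma 1 was higher and 2 were lower, where 4.30% and 4.41% of all probe sets were, and the median log2 fold change was -0.04, against 0.00 over all probe sets. The groups did not overlap for 66.7% of these genes. That share was 39.0% over all probe sets and 45.9% over those above the dim level on all arrays. The backgrounds given for this list and the lists below count every probe set of a gene, while the lists count 1 probe set per gene. A background share without overlap over 1 probe set per gene was not computed. ARG2, the mitochondrial arginase that makes ornithine, had log2 intensities of 10.16 and 10.25 in LNCap ERG, against 9.76 and 9.77 in LNCap Vector. Both LNCap ERG arrays were above, by a log2 fold change of 0.44 ± 0.09 (SE, adjusted p = 0.44), or 1.36-fold with an interval of 1.17 to 1.58. When the variance moderation was trended and robust, ARG2 passed (adjusted p = 0.028), and its other probe set, at 5.29 and 5.38 in LNCap ERG and 5.27 and 5.42 in LNCap Vector, had a log2 fold change of -0.01. SLC7A2, a carrier of arginine, lysine and ornithine, had 7.33 and 7.36 in LNCap ERG, against 7.69 and 7.76 in LNCap Vector, both arrays lower (log2 fold change -0.38 ± 0.09 SE, adjusted p = 0.48), and its other probe sets, dim on all arrays, had 0.13 and 0.25. OAT, which takes ornithine away toward glutamate and proline, had 7.07 and 7.31 in LNCap ERG, against 7.46 and 7.67 in LNCap Vector, again both lower (log2 fold change -0.38 ± 0.13 SE, adjusted p = 0.54).

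The 12 genes of the methionine cycle and of methylthioadenosine salvage, which supply AMD1 and recycle the by-product of SRM and SMS, had 1 gene higher and 0 genes lower with an unadjusted p below 0.05 by limma (background 4.30% and 4.41%), none called, and a median log2 fold change of -0.07, against 0.00 over all probe sets. The one higher was BHMT, a betaine-dependent methyltransferase best known from liver and kidney, with 3.42 and 3.48 in LNCap ERG, against 3.07 and 3.01 in LNCap Vector, all dim, and its other probe set, also dim, had a log2 fold change of -0.11 and overlapped. Over the 12 genes the groups did not overlap for 66.7%, against 39.0% of all probe sets and 45.9% of those above the dim level on all arrays. APIP, a salvage pathway dehydratase, and MAT2B, the regulatory subunit of methionine adenosyltransferase, were at -0.17 ± 0.09 (SE; limma, adjusted p = 0.65) and at -0.19 ± 0.10 (SE; adjusted p = 0.66) on the log2 scale, with both LNCap ERG arrays below both LNCap Vector arrays, and their other probe sets, dim on all arrays, overlapped at -0.02 and -0.06.

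Among the genes of iron and copper handling, which STEAP reductases supply with reduced metal, 29 of 32 listed were measured and the other 3 were not analysed here. At the probe set with the highest mean, none was called and none reached an unadjusted p of 0.05 in either direction by limma (background 4.30% higher and 4.41% lower), and the log2 fold changes ran from -0.29 to 0.15 with a median of -0.04, against 0.00 over all probe sets. The groups did not overlap for 6 genes that were higher in LNCap ERG and 7 that were lower. Together these were 44.8% of the list, against 39.0% of all probe sets and 45.9% of those above the dim level on all arrays. The 3 genes with the smallest p-values, SLC31A1, SLC39A8 and TFRC, are named next, and each was lower in both LNCap ERG arrays. SLC31A1, the copper importer, had log2 intensities of 8.48 and 8.49 in LNCap ERG, against 8.66 and 8.73 in LNCap Vector (log2 fold change -0.21 ± 0.09 SE, adjusted p = 0.59), and its other probe sets had -0.20 and -0.41. SLC39A8, a carrier of zinc, manganese and iron, had 8.53 and 8.80 in LNCap ERG, against 8.89 and 9.03 in LNCap Vector (log2 fold change -0.29 ± 0.12 SE, adjusted p = 0.59), while its 6 probe sets ran from -0.35 to 0.34, both ends with an unadjusted p under 0.05 and the upper one dim on all arrays. TFRC, the transferrin receptor, had 11.85 and 11.91 in LNCap ERG, against 12.03 and 12.08 in LNCap Vector (log2 fold change -0.17 ± 0.09 SE, adjusted p = 0.64). Another bright TFRC probe set, at 11.22 and 11.22 in LNCap ERG and 11.18 and 11.33 in LNCap Vector, overlapped between the groups. One more TFRC probe set, dim on all arrays, had 3.55 and 3.58 in LNCap ERG, against 3.85 and 3.82 in LNCap Vector (log2 fold change -0.27 ± 0.08 SE, adjusted p = 0.52, unadjusted p = 0.021), and the last, dim on some arrays, overlapped at -0.14. The STEAP1 relative STEAP1B was dim on all arrays, with a log2 fold change of 0.18 ± 0.09 (SE, adjusted p = 0.64).

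**Figure D4:**
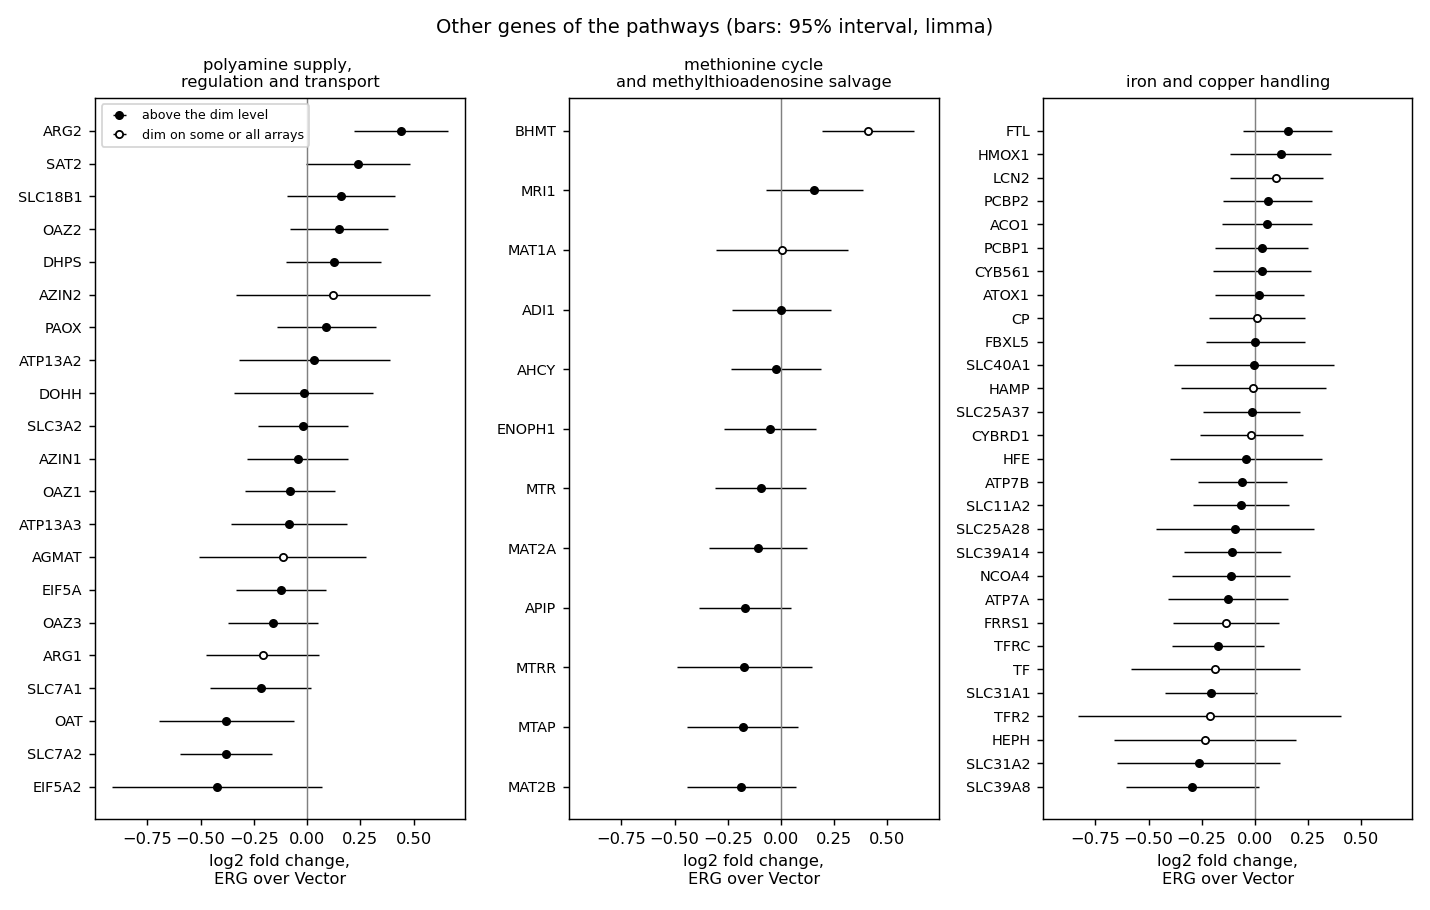
Log2 fold change of LNCap ERG over LNCap Vector (x axis) with 95% intervals for the other genes of the 3 pathway lists (y axis, sorted), read at the probe set with the highest mean; open circles are dim on some or all arrays. Most intervals cross 0, and ARG2, at 0.44, and SLC7A2, at -0.38, lie farthest from it among the genes whose intervals do not and that are not dim.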

How the data were processed

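RNA of 4 Affymetrix arrays was compared, 2 of LNCap ERG and 2 of LNCap Vector. The authors scanned the arrays, analysed the images with dChip and normalized with RMAexpress; the deposited values are probe set intensities, 1 column per array, read as linear from their minima of 4.35 to 4.72 and maxima of 14962 to 15344, since no scale is stated. Program versions are not given in these sources.

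Intensities were taken to log2. Of 51965 probe sets, 39466 name 1 gene in the platform annotation, 838 several and 11661 none; the last 2 kinds, and 2 that lacked a value, were dropped, leaving 39464. RefSeq (GRCh38.p14) held 39415 of the 1-gene entries by Entrez identifier. LNCap ERG was compared with LNCap Vector in limma 3.58.1 by lmFit and eBayes (R 4.3.3, 2 residual and 3.50 prior degrees of freedom), with Benjamini-Hochberg adjustment over all 39464 probe sets and a threshold of 0.05. The fit was tested on simulated data. Plots and motif counts used Python 3.11.15 and matplotlib 3.10.9.

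Genes named were every member with each probe set, and the 3 genes of each pathway list with the smallest p; others are named as chosen after their values were seen. Members and lists were chosen with earlier results of these data known. Arrays have no read depth, and their number limits the precision. Alternatives were other moderation, filters, probe set summaries, scalings and tests, the replicate number as a block, and each array left out.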

Additional observations from a re-analysis of the deposited data

How the results depend on the processing

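No member probe set was called under any of the alternatives tried, including the replicate number as a block (0 called, and 0 over all probe sets) and the methods' t-test after adjustment. At an unadjusted p under 0.05 that t-test gave 2 higher and 0 lower, with 0.0013 and 0.045 for the first 2 SAT1 probe sets and 0.079 for the separated STEAP4 probe set, against 1 and 1 by limma. Same-numbered arrays correlated at r = 0.073 in their deviations, so the numbers were not taken to pair them. Of the alternatives with 4 arrays, only quantile normalization again, housekeeping centring and the offset change the log2 fold change of a single probe set. The others change the variance or the probe sets tested and cannot turn a direction. Of the 17 member probe sets, 15 kept their direction under every alternative with 4 arrays that kept them. The exceptions were near 0: the level AMD1 probe set had 0.0041 with quantile normalization again, and SMS had -0.014 with housekeeping centring, which moved all log2 fold changes by -0.016. With single arrays left out, 9 kept their direction, STEAP1, STEAP2, both STEAP4 and all 3 SAT1 probe sets among them. A probe set whose groups do not overlap cannot turn when 1 array is left out. For all 3 SAT1 probe sets and the separated STEAP4, AMD1 and SMOX probe sets the direction was therefore fixed in advance. The separated STEAP4 probe set then ran from -0.88 to -0.54 and the first SAT1 probe set from 0.25 to 0.26. The log2 fold changes that turned ran from -0.0080 to 0.0080 for that AMD1 probe set, -0.010 to 0.015 for SMS, -0.12 to 0.073 for SRM, -0.068 to 0.031 for ODC1, -0.19 to 0.028 and -0.18 to 0.040 for STEAP3, and -0.43 to 0.16 and -0.00050 to 0.15 for SMOX. With the offset of 16 the separated STEAP4 probe set had -0.37 and the separated SMOX probe set -0.20; leaving out single arrays put that SMOX value between -0.62 and -0.19. The pathway genes were refitted only with trended and robust moderation, quantile normalization again, housekeeping centring, the replicate block and single arrays left out, and of these trended and robust moderation alone made a call, 1 higher (ARG2). There 49 probe sets were called higher and 39 lower over the whole array, against 0 in the fit reported; the cause was not tested. Over the whole array 6 were called higher and 8 lower when probe sets were averaged per gene, 3 and 2 with the offset, 1 and 2 with plain probe sets only, 1 and 1 with 1 probe set per gene and without dimmer probe sets, and 0 under the others.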

Other observations

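Further genes of the same pathways, chosen after their values were seen, stood apart between the groups without passing. The groups did not overlap for 66.7% of the polyamine supply, regulation and transport genes and 44.8% of the iron and copper genes. Over all probe sets this share was 39.0%, and 45.9% among those above the dim level on all arrays. Both of these backgrounds count every probe set of a gene, while the lists count 1 probe set per gene. SAT2, a relative of SAT1, had log2 intensities of 10.06 and 10.07 in LNCap ERG, against 9.91 and 9.75 in LNCap Vector (log2 fold change 0.24 ± 0.10 SE; limma, adjusted p = 0.58). FTL, the ferritin light chain, had 12.52 and 12.53 in LNCap ERG, against 12.39 and 12.36 in LNCap Vector (log2 fold change 0.15 ± 0.08 SE; limma, adjusted p = 0.66). SLC7A1, the main arginine carrier of many cells, had 10.29 and 10.22 in LNCap ERG, against 10.41 and 10.54 in LNCap Vector (log2 fold change -0.22 ± 0.10 SE; limma, adjusted p = 0.60), and its 4 other probe sets ran from -0.36 to 0.01. EIF5A2, a paralog of the translation factor that carries the spermidine-derived residue hypusine, had 5.54 and 6.07 in LNCap ERG, against 6.10 and 6.36 in LNCap Vector (log2 fold change -0.42 ± 0.20 SE, limma, adjusted p = 0.62). For EIF5A2 the nearest arrays of the 2 groups, at 6.07 and 6.10, lay far closer together than the 2 LNCap ERG arrays did. FTL has 2 probe sets and EIF5A2 has 3, and for both genes only the one with the highest mean is given here.

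The group means of one AMD1 probe set were equal to within 1e-06 on the log2 scale, and so were those of 194 of the 39464 probe sets in all (0.492%). The cause was not tested.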
